A study of Homo sapiens with 12 samples.

Results

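22Rv1, a human PCa cell line, derives from a xenograft that relapsed after castration of the host. The libraries described here are the 6 mRNA libraries of 22Rv1 among the 12 libraries of the series, chosen by their titles. In 3 of them the cells had been transfected with piR-4447944 mimic, an RNA oligo with the sequence of the piRNA, and in the other 3 with NC-mimic, the negative control. All 6 cultures were kept in androgen-deprived medium with 10% charcoal-stripped serum (CS-FBS), so the controls also lacked most androgen. The mimic, a monophosphate RNA with 2′ O-methoxy groups, was delivered with a lipid reagent, and 22Rv1 is 1 line, so the spread between libraries is that of cultures of one line at best. The labels number the libraries 1 to 3 in each group, and libraries of the same number were compared as pairs. The study used these libraries to look for mRNAs that change with the piRNA. The other 6 libraries of the series are LNCaP cells with the same reagents and serum.

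PIWI-interacting RNAs (piRNAs) are small RNAs that are loaded into PIWI proteins, and in the germline they guide these proteins to transposon and messenger RNAs by base pairing. In somatic cells a piRNA in the cytoplasm may pair with an mRNA, often in its 3′UTR, and lower it. Androgen drives the kallikrein genes of luminal prostate cells, which is why KLK3, the gene of prostate-specific antigen (PSA), is followed as a readout of androgen signalling.

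To show what a match to the 5′ part of the piRNA looks like in this genome, 3′UTR stretches are given for NEFH, the gene the study took as the target, and for 2 genes above 1 TPM (a level scaled for transcript length) that hold such a match and were lower with the mimic by the limits below, both with all pairs and without pair 3. They were read 5′ to 3′ on the strand of the mRNA from hg38, and the capitals mark the 7 bases ATAGCTT, which pair with piRNA positions 2 to 8.
NEFH: ggacaattatgATAGCTTatgtagctgaa
TUBA4A: agcagctttgcATAGCTTcctgtcttgct
MICOS10: tttagttctagATAGCTTtgtattcccgc
The NEFH stretch lies at chr22:29490921-29490949 on the plus strand, in exon 4 of 4, and its match starts 229 bases into a 3′UTR of 687 bases. TUBA4A, an alpha-tubulin, holds its match at chr2:219249757-219249785 on the minus strand in exon 4 of 4. The stretch of MICOS10, a subunit of the complex that shapes mitochondrial cristae, is at chr1:19629012-19629040 on the plus strand in exon 4 of 4. These 7 bases occur in 10.1% of the 19550 annotated 3′UTRs of hg38, so a match by itself is common. By the same limits, 23 of 1580 tested genes with a match were higher with the mimic and 7 lower with all pairs. These are 1.46% and 0.443%, beside 1.23% and 1.25% of all genes tested. Without pair 3, 106 and 19 of 1582 were, or 6.7% and 1.2%, beside 3.27% and 2.84% of all genes. Genes with a match had longer 3′UTRs, with a median of 3410 bases against 1131 with all pairs, and the part of length in these counts was not tested.

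The libraries held between 12161091 and 22179601 expected counts, the estimated reads per gene before any normalization. The pair numbered 3 lay apart from the others. Between replicates 1 and 2 the SD over genes of the log2 ratio was 0.355 with NC-mimic and 0.359 with the mimic, and with replicate 3 as one of the libraries it was 0.639 to 0.792. The mimic library numbered 3 had a mean fragment of 255.7 bases, against 269.6 to 277.8 in the other 5, and 2.23% of its counts were mitochondrial, against 4.62% to 5.37%. The labels give no culture or sequencing date, so what sets pair 3 apart cannot be told from them, and the p-values measure the spread between these libraries, which may be technical. Luminal markers summed to 1940 to 2340 TPM (transcripts scaled for length to a fixed sum) with NC-mimic and 1870 to 2520 with the mimic. Basal, leukocyte and endothelial markers stayed at or under 5.21 TPM in sum, with KRT14, MS4A1, CD3E, KDR and CDH5 at 0 in all 6 libraries, and fibroblast markers summed to 10.2 to 17.3 and 7.81 to 27.8 TPM. The highest sums of basal, fibroblast and leukocyte markers were in the mimic library numbered 3, and their part in the results was not tested.

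The first question was whether the 3 pairs changed in the same way. The change in a pair was the log2 ratio of mimic to NC-mimic in CPM (counts per 1000000, scaled by the TMM method, plus 1). Of 16898 genes tested, 159 were more than 2-fold higher and 160 more than 2-fold lower in pair 1, and 138 and 146 were in pair 2. In pair 3 these numbers were 1000 and 1000. The SD of the log2 ratio was 0.361, 0.344 and 0.665 in pairs 1, 2 and 3, and in pairs 1 and 2 it was thus close to the 0.355 and 0.359 between replicates 1 and 2 of one group. In bulk RNA, fewer cells of a type and less RNA per cell cannot be told apart. The ratios of different pairs were almost unrelated across genes, with Pearson's r of 0.0527 for pairs 1 and 2, -0.0096 for pairs 1 and 3, and 0.0342 for pairs 2 and 3, over genes that share libraries and depth and are no independent replicates. The sign was the same for 52.7%, 50.8% and 52.0% of the genes.

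**Figure D1:**
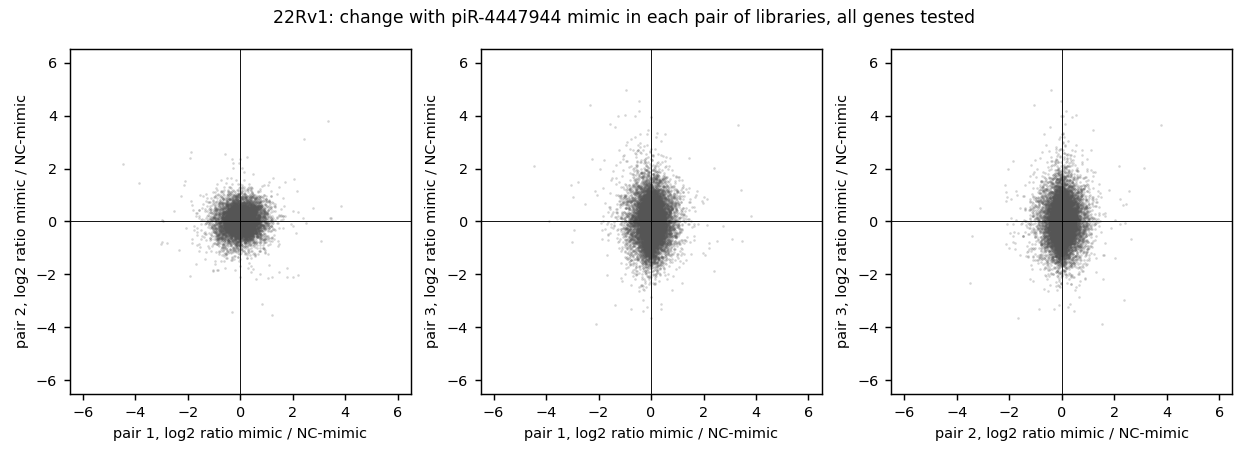
Log2 ratio of piR-4447944 mimic to NC-mimic (CPM + 1) of each of the 16898 genes tested, one point per gene, with one pair of libraries on each axis. The cloud is round for pairs 1 and 2 and stretched along the axis of pair 3 (SD 0.665 against 0.361 and 0.344).

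Differentially expressed genes (DEGs) were counted by the study's limits, a log2 fold change beyond 0.2 in either direction together with an unadjusted p under 0.05, in a fit with the pair as a block. The fold changes of edgeR were used as fitted, whereas in the original processing the 0.2 limit was set on DESeq2 fold changes after shrinkage. With 3 pairs, 208 genes were higher with the mimic and 212 were lower, 1.23% and 1.25% of the genes tested. With shrunken DESeq2 fold changes 156 were higher and 213 lower. In all, 420 genes or 2.49% had an unadjusted p under 0.05, which is under 5% of the genes tested. After Benjamini-Hochberg adjustment over all genes, 0 genes (0.0%) passed in edgeR's quasi-likelihood test, with a smallest adjusted p of 0.869, and DESeq2 passed 2, U2AF1 and SMIM11B, each of which has a near-identical copy (SMIM11A for the latter). In edgeR the sum of SMIM11A and SMIM11B had a log2 fold change of -0.24 ± 0.22 (SE), or -0.24 ± 0.25 without pair 3. It met the limits in neither fit. Without pair 3, 17101 genes were tested, and 559 (3.27%) were higher and 486 (2.84%) lower. Here 1194 genes (6.98%) had an unadjusted p under 0.05, and 17 (0.0994%) had an edgeR adjusted p under 0.05, the smallest being 1.42e-05. This fit rests on 2 pairs, so its SEs and p-values draw mostly on a spread estimated across genes, not on that of each gene. The biological coefficient of variation was 0.242 with 3 pairs and 0.122 without pair 3. Of the 16678 genes tested in both fits, 121 (0.726%) were higher and 144 (0.863%) lower by the limits in both, and 0 (0.0%) went opposite ways, though the fits share libraries. Every "higher" or "lower" below refers to the mimic against NC-mimic, and fold changes are log2 values ± SE from the fit of 3 pairs unless stated. A second value beside one of these, in parentheses, is that of the fit without pair 3. Counts of list members called below are to be read beside the shares of all genes given here.

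The candidate genes NEFH, PLCD1, PLIN2, TENT5B, U2AF1 and GJD3 had been picked by the study from these libraries as lower with the mimic and measured again by RT-qPCR, so their direction here is not independent evidence. All 6 of them were lower in 3 of 3 pairs, where 14.9% of all genes were, and 4 met the DEG limits in both fits. The exact paired permutation test on 3 pairs gave p = 0.25 for each, which is the smallest p that 3 pairs allow.

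U2AF1 encodes the small subunit of the factor that binds the 3′ splice site. It was at 57.7, 65.8 and 63.5 CPM in the NC-mimic libraries 1 to 3 and at 25.9, 30.2 and 12.6 CPM in the mimic libraries. The groups did not overlap, as for 8.71% of all genes tested, and the fold change was -1.52 ± 0.26, or -1.14 ± 0.12 without pair 3, where its edgeR adjusted p was 0.00017. U2AF1L5, a near-identical copy on chromosome 21 that the current annotation marks as an artifact of the assembly, went the other way. Its levels were 66.8, 62.9 and 68.2 CPM with NC-mimic and 78.4, 90.3 and 85.6 CPM with the mimic, a fold change of 0.36 ± 0.12 (0.38). RSEM divides reads that fit both copies, so the split between them is uncertain. Summed, the copies had 124.5, 128.7 and 131.7 CPM with NC-mimic and 104.3, 120.5 and 98.2 CPM with the mimic. The sum was lower in each pair, by -0.26 ± 0.12 with 3 pairs and -0.18 ± 0.09 without pair 3, and it met the DEG limits in neither fit (edgeR adjusted p = 0.869 and 0.735).

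PLIN2 coats lipid droplets. Its levels of 7.10, 6.98 and 7.0 CPM with NC-mimic and 3.49, 4.08 and 3.07 CPM with the mimic did not overlap, and the fold change was -0.99 ± 0.29, or -0.90 ± 0.32 without pair 3. TENT5B, a noncanonical poly(A) polymerase, was lower by -1.50 ± 0.41 (-1.37 ± 0.55 without pair 3), with 2.78, 3.65 and 6.01 CPM against 0.908, 1.62 and 1.79 CPM. GJD3, a connexin of gap junctions, was at 3.92, 4.24 and 4.53 CPM against 1.61, 2.35 and 1.09 CPM, a fold change of -1.37 ± 0.44 (-1.06 ± 0.45 without pair 3). These 3 genes are weakly expressed, at about 1 to 7 CPM, and their groups were separate in all libraries, as for 8.71% of all genes tested.

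NEFH encodes the heavy neurofilament subunit, an intermediate filament of axons. It was at 32.6, 45.3 and 58.5 CPM with NC-mimic and at 31.4, 37.9 and 30.2 CPM with the mimic. The ranges overlapped, and pair 3 carried most of the change, with a log2 ratio of -0.93 against -0.05 in pair 1 and -0.25 in pair 2. The fold change was -0.42 ± 0.20 and became -0.16 ± 0.13 without pair 3, and NEFH met the DEG limits in neither fit. In the study's RT-qPCR, however, NEFH was the only candidate lowered in both cell lines. The study also reported less NEFH protein, a lowered reporter carrying its 3′UTR, and binding of its mRNA to the piRNA and PIWIL2. Those assays are separate from these libraries and were not examined here. PLCD1, a phosphoinositide-specific phospholipase C, had 4.83, 5.61 and 6.17 CPM against 4.82, 3.19 and 3.65 CPM. Its groups were separate, although pair 1 had a log2 ratio of -0.00, and its fold change of -0.52 ± 0.34 (-0.40) met the limits in neither fit.

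**Figure D2:**
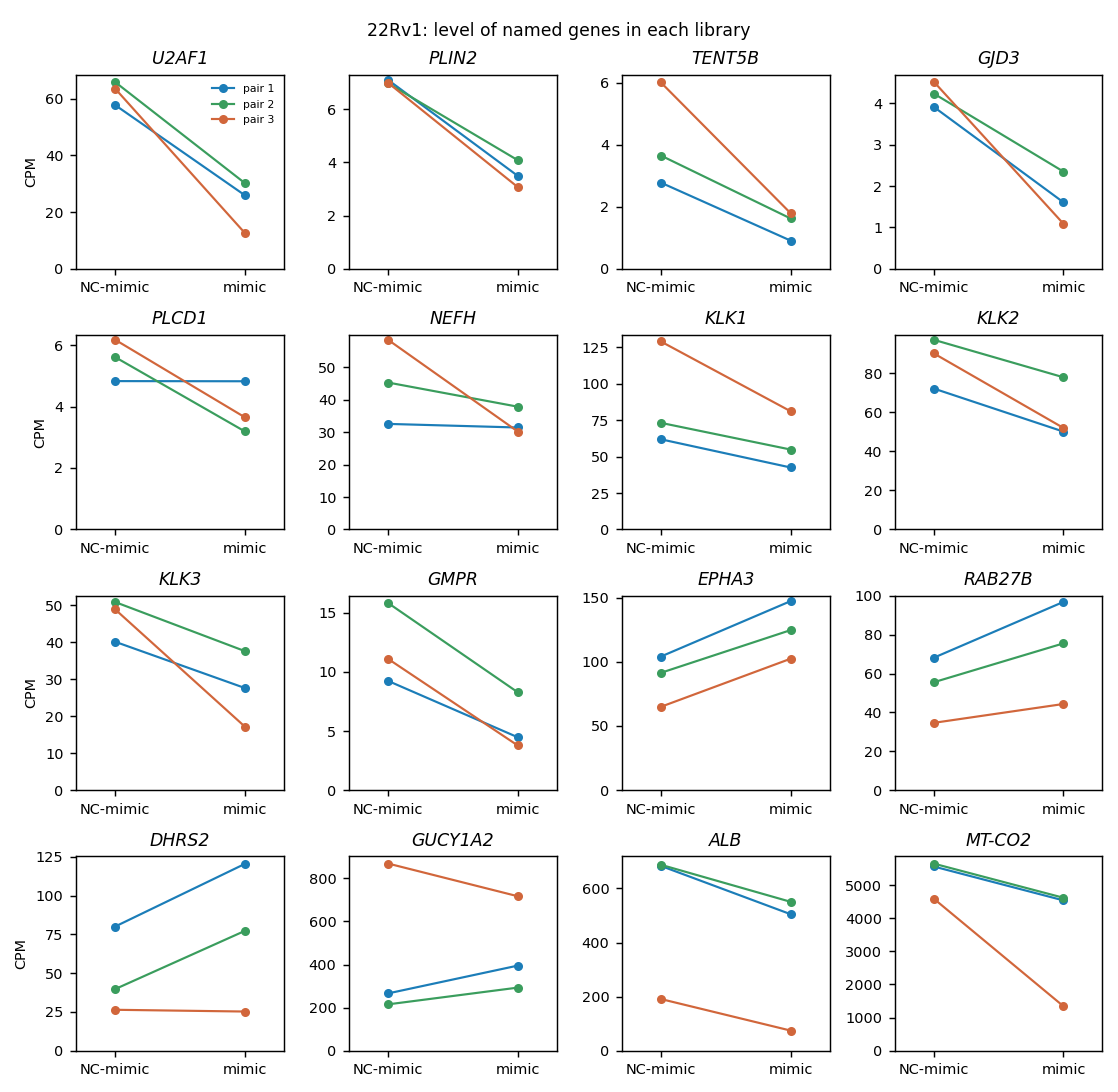
CPM (vertical axis, from 0) of 16 genes in the 6 libraries, with NC-mimic on the left and piR-4447944 mimic on the right of each panel and a line joining the libraries of one pair. U2AF1, PLIN2, TENT5B and GJD3 lie lower with the mimic in each pair without overlap, the 3 kallikreins lie lower in each pair, and NEFH is nearly level in pair 1 (32.6 and 31.4 CPM).

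Among protein-coding genes at 1 TPM or more that met the limits in both fits with the same sign in each pair, 84 were higher and 125 were lower. The lower genes with the smallest p included 2 kallikreins of the cluster on chromosome 19. KLK1, tissue kallikrein, was at 61.9, 73.2 and 129.1 CPM with NC-mimic and at 42.6, 54.9 and 81.2 CPM with the mimic, and KLK2 was at 72.2, 97.2 and 90.2 CPM against 50.1, 77.9 and 52.0 CPM. In both genes the groups overlapped, while the mimic library was the lower one in each pair. The fold change of KLK1 was -0.54 ± 0.12 (-0.48 ± 0.11 without pair 3) and that of KLK2 was -0.55 ± 0.14 (-0.42 ± 0.10). GMPR, an enzyme of purine nucleotide metabolism, had 9.24, 15.8 and 11.1 CPM against 4.47, 8.28 and 3.78 CPM and a fold change of -1.17 ± 0.25 (-0.99 ± 0.24). GDNF, a neurotrophic factor, was lower by -0.71 ± 0.17 (-0.57 ± 0.16) and NTHL1, a DNA glycosylase of base excision repair, by -0.70 ± 0.18 (-0.61 ± 0.17). MTFR1, a regulator of mitochondrial fission, was lower by -0.49 ± 0.13 (-0.42), with 58.8, 58.4 and 61.6 CPM against 41.5, 46.2 and 39.8 CPM. CCNF, the F-box cyclin of G2, was lower by -0.58 ± 0.16 (-0.41). SSX2, a cancer-testis gene on the X chromosome, was lower by -1.16 ± 0.25 (-1.31 ± 0.19), with 16.3, 28.0 and 3.04 CPM against 7.97, 9.40 and 1.79 CPM. It has a near-identical copy, SSX2B, and the sum of both gave -0.50 ± 0.25 and, without pair 3, -0.12 ± 0.09, short of the limits in both fits. SSX2B makes up most of this sum, at 40.97 to 104.9 CPM, so a change of SSX2 alone weighs little in it, and how far the division of reads bears on the call was not tested. AC068631.2, whose model overlaps DNAJB11 on the same strand, was lower by -1.71 ± 0.45 (-1.23).

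The higher genes were led by EPHA3, an ephrin receptor tyrosine kinase. EPHA3 was at 104.1, 91.4 and 64.9 CPM with NC-mimic and at 147.3, 124.7 and 102.4 CPM with the mimic, higher in each pair by similar log2 ratios of 0.50, 0.44 and 0.65. Its fold change was 0.53 ± 0.12 (0.47 ± 0.08 without pair 3, edgeR adjusted p = 0.0360), and it did not pass adjustment without pair 3 in DESeq2 or without the block. RAB27B, a GTPase of vesicle secretion, had 68.2, 55.5 and 34.6 CPM against 96.9, 75.6 and 44.4 CPM and a fold change of 0.44 ± 0.12 (0.48 ± 0.10). SMAD9, a transcription factor of BMP signalling, was higher by 0.56 ± 0.15 (0.45 ± 0.14), with 24.8, 22.9 and 26.5 CPM against 32.1, 33.2 and 44.9 CPM. These groups did not overlap, as for 8.71% of all genes tested. LRRC7, a postsynaptic scaffold protein, was higher by 1.08 ± 0.27 (1.00), CRYBG3 by 0.67 ± 0.18 (0.52) and the zinc finger gene ZNF117, which overlaps ERV3-1 on the same strand, by 0.50 ± 0.14 (0.44). AC118553.2 (1.55 ± 0.36, 1.80) and AC073896.1 (0.88 ± 0.21, 1.05) are models that run over several genes of the same strand, SLC35A3 and MFSD14A for the former and CS and CNPY2 for the latter, so their reads cannot be told apart from those of these genes with certainty. MT3, a metallothionein, was higher by 2.02 ± 0.49, but its levels of 0.0911, 0.261 and 2.88 CPM against 0.280, 1.34 and 11.5 CPM were near the detection limit outside pair 3, and it was not tested without that pair. SYCP2L, of the synaptonemal complex, was at or under 0.247 CPM with NC-mimic and at 0.671 to 1.66 CPM with the mimic.

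Without pair 3, 17 genes had an edgeR adjusted p under 0.05, 6 of them higher and 11 lower. They are named here by that result, after their values were seen, apart from those already given. Of the 17, 11 had the same sign in pair 3 and 11 met the DEG limits with all 3 pairs. DESeq2 without pair 3 passed 12 genes, 10 of them among the 17, and edgeR with no block passed 4, all among the 17. With 3 pairs the fold changes of DHRS2, GUCY1A2 and ALB were 0.51 ± 0.20, 0.25 ± 0.18 and -0.70 ± 0.21, and those that follow are without pair 3. DHRS2, a short-chain dehydrogenase, was higher by 0.76 ± 0.11 (edgeR adjusted p = 0.00425), with 80.1 and 39.8 CPM against 120.5 and 77.3 CPM in pairs 1 and 2, while pair 3 had 26.4 and 25.3 CPM. GUCY1A2, a subunit of the nitric oxide receptor guanylyl cyclase, was higher by 0.51 ± 0.07 (edgeR adjusted p = 0.00425), with 266.1 and 215.3 CPM against 395.1 and 293.0 CPM, and pair 3 went the other way from 868.8 to 717.0 CPM. ALB, albumin, was lower by -0.38 ± 0.06 (edgeR adjusted p = 0.0207), with 683.2 and 687.4 CPM against 504.7 and 550.5 CPM, and pair 3 was lower as well, at 191.2 and 74.6 CPM. MT-CO2, MT-ND2, MT-ND4 and MT-ND1 of the mitochondrial genome are described with their group. The remaining 7 are 6 genes known only by clone names and 1 antisense RNA. AC005034.3, with 6.69 and 5.87 CPM in the NC-mimic libraries of pairs 1 and 2, was listed at 0 in the other 4 libraries. AL136295.4 was at 0 in the 3 NC-mimic libraries and at 2.24, 7.44 and 0.512 CPM with the mimic, and AC002470.2 at 0, 0 and 0.741 CPM against 4.33, 7.72 and 6.08 CPM. A count of 0 allows up to 3 counts, or 0.135 to 0.247 CPM in these libraries. FP671120.6 was at 8.24, 0 and 0 CPM against 91.7, 12.8 and 11.6 CPM. CERS6-AS1, AL354740.1 and AC027796.3 were lower in pairs 1 and 2 and higher in pair 3. All 7 models overlap other annotated genes, and how strand was used in the counting is not given in the sources used here.

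The 13 protein-coding genes of the mitochondrial genome, which encode subunits of the respiratory chain, were lower with the mimic in 12 of 13 cases in pair 1, 12 of 13 in pair 2 and 13 of 13 in pair 3. These genes share libraries and move with the mitochondrial share of the counts, so they are not 13 independent cases. With 3 pairs, 6 of 13 met the limits as lower, where 1.25% of all genes did, and 0 as higher. The median was -0.70 beside -0.01 for all genes. Without pair 3, 8 of 13 were lower, where 2.84% of all genes were. The median was -0.23, and 4 passed adjustment over all genes. MT-CO2, of cytochrome c oxidase, was at 5560, 5647 and 4590 CPM with NC-mimic and at 4537, 4616 and 1343 CPM with the mimic. MT-CO2 had a log2 ratio of -0.29 in both pair 1 and pair 2 and of -1.77 in pair 3, and a fold change of -0.78 ± 0.30 with 3 pairs and of -0.29 ± 0.04 without pair 3 (edgeR adjusted p = 0.00425). For MT-ND2, MT-ND4 and MT-ND1, subunits of complex I, the fold changes without pair 3 were -0.29 ± 0.05, -0.25 ± 0.04 and -0.31 ± 0.06, with edgeR adjusted p-values of 0.0112, 0.0173 and 0.0444. MT-ND4L, whose gene overlaps that of MT-ND4, was lower by -0.47 ± 0.17 (-0.27 ± 0.08). MT-ATP8 was the exception in pairs 1 and 2, with log2 ratios of 0.14 and 0.16, and MT-ND6, the only one of these genes on the light strand, had like ratios of -0.20, -0.17 and -0.17 in all 3. The share of mitochondrial counts was 5.37%, 5.35% and 4.62% with NC-mimic and 4.74%, 4.90% and 2.23% with the mimic, and fewer mitochondria and less RNA per mitochondrion cannot be told apart. The part of RNA quality in this difference was not tested.

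**Figure D3:**
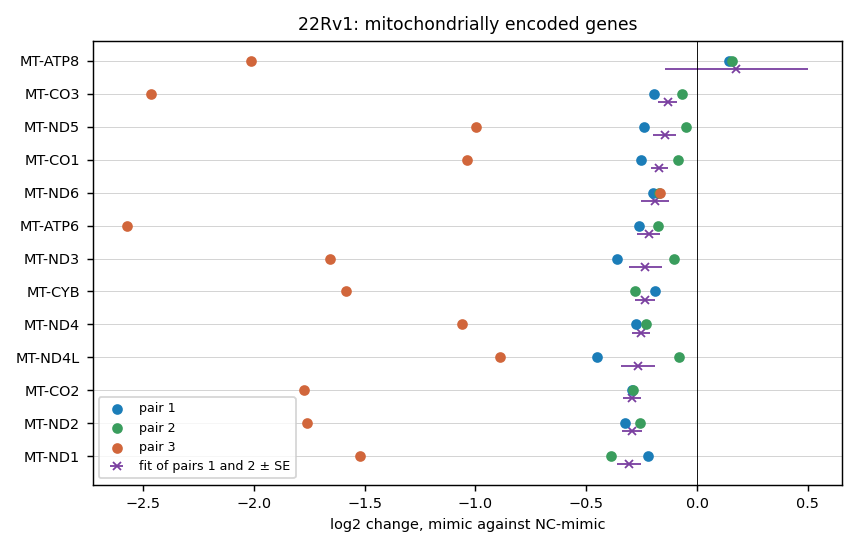
Log2 ratio of mimic to NC-mimic in each pair (points) for the 13 mitochondrially encoded protein-coding genes, with the fold change ± SE of the fit of pairs 1 and 2 (crosses). Pairs 1 and 2 lie left of 0 for 12 of 13 genes, apart from each other for MT-ND4L (-0.45 and -0.08). Pair 3 lies further left for all but MT-ND6.

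The nuclear genes of the respiratory chain gave a smaller difference, and the pairs differed. Their median log2 ratio was 0.03, -0.12 and -0.56 in pairs 1, 2 and 3, with 20, 38 and 44 of 45 lower. With 3 pairs 2 of 45 were lower and 0 higher, with a median of -0.19, and without pair 3 these numbers were 2 and 1 with a median of -0.05. NDUFV2, a complex I subunit, was at 125.4, 131.9 and 121.9 CPM against 103.4, 110.4 and 86.2 CPM, a fold change of -0.34 ± 0.12 (-0.27 ± 0.08). NDUFB10, of the same complex and named after its values were seen, was lower by -0.32 ± 0.12 (-0.24 without pair 3). The abundant members ATP5F1B (-0.28 ± 0.16, -0.07) and COX6A1 (-0.26 ± 0.16, -0.06) were not called.

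Genes that androgen induces were examined because the cultures were androgen-deprived. With 3 pairs, 3 of 23 were lower, where 1.25% of all genes were, and 0 higher, and the median was -0.15. Without pair 3, 3 were lower, where 2.84% of all genes were, and 0 higher, with a median of -0.12. KLK2 and KLK3 were lower in both fits. KLK3, PSA, was at 40.1, 50.9 and 48.9 CPM with NC-mimic and at 27.6, 37.6 and 17.2 CPM with the mimic. These groups did not overlap, as for 8.71% of all genes tested. The fold change of KLK3 was -0.82 ± 0.23 with 3 pairs and -0.49 ± 0.12 without pair 3 (edgeR adjusted p = 0.247). EAF2, an elongation factor partner at or under 1.69 CPM, was the other lower gene with 3 pairs, and SLC45A3, the prostein gene, the other one without pair 3 (-0.29). The most abundant members by TPM, KLK4 (-0.26 ± 0.13, -0.14) and ZBTB10 (0.01 ± 0.11, 0.03), were not called, nor was TMPRSS2 (-0.15 ± 0.14, -0.12) or FKBP5 (-0.13 ± 0.11, -0.12), which are well known to be induced by androgen and are named after their values were seen. Of the 11 lineage factors tested, 0 were called in either fit, with FOXA1 at 0.07 ± 0.12 (0.14) and GATA2, the one with the smallest p, at -0.33 ± 0.15 (-0.16).

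Targets of hypoxia-inducible factor (HIF), the regulator of the response to low oxygen, showed how strongly pair 3 can set a result. In pair 3, all 26 HIF targets tested were higher, with a median log2 ratio of 2.31. In pair 1, 23 of 26 were lower with a median of -0.30, and in pair 2 12 were lower with a median of 0.04. With 3 pairs 0 of 26 were called in either direction, although the median of the fit was 0.63. Without pair 3, 4 were lower, where 2.84% of all genes were, and 0 higher, with a median of -0.14. DDIT4, an inhibitor of mTORC1, was at 75.0, 143.6 and 145.1 CPM with NC-mimic and at 48.6, 138.3 and 1346 CPM with the mimic. VEGFA, the angiogenic growth factor, was at 152.2, 196.8 and 346.0 CPM against 127.3, 211.9 and 2521 CPM. In both genes the mimic library numbered 3 stood far above the other 5. ERO1A, an oxidase of the endoplasmic reticulum and the member with the smallest p, had a fold change of 0.55 ± 0.29 with 3 pairs and 0.08 ± 0.10 without pair 3. BNIP3, named after its values were seen, was lower without pair 3 (-0.40) and at 1065 CPM in the mimic library of pair 3 against 50.6 to 185.1 CPM in the other 5.

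Glycolysis genes followed the same pattern over the pairs. Their median log2 ratio was -0.23, -0.09 and 1.48 in pairs 1, 2 and 3, and 0 of 19 were called with 3 pairs. Without pair 3, 5 were lower, where 2.84% of all genes were, and 0 higher, and the median was -0.13. GAPDH, a common reference gene, was at 3796, 4306 and 4837 CPM with NC-mimic and at 3130, 4059 and 13470 CPM with the mimic. Its fold change was 0.36 ± 0.33 with 3 pairs and -0.18 ± 0.05 without pair 3, so the direction turned. TPI1 turned likewise, from 0.15 ± 0.20 to -0.15 ± 0.06, and LDHB, with the smallest p, was at -0.30 ± 0.15 and -0.12 ± 0.06. LDHA, lactate dehydrogenase A, named after its values were seen, was lower without pair 3 (-0.31), with 710.6 and 944.3 CPM against 475.5 and 914.8 CPM, most of it in pair 1.

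**Figure D4:**
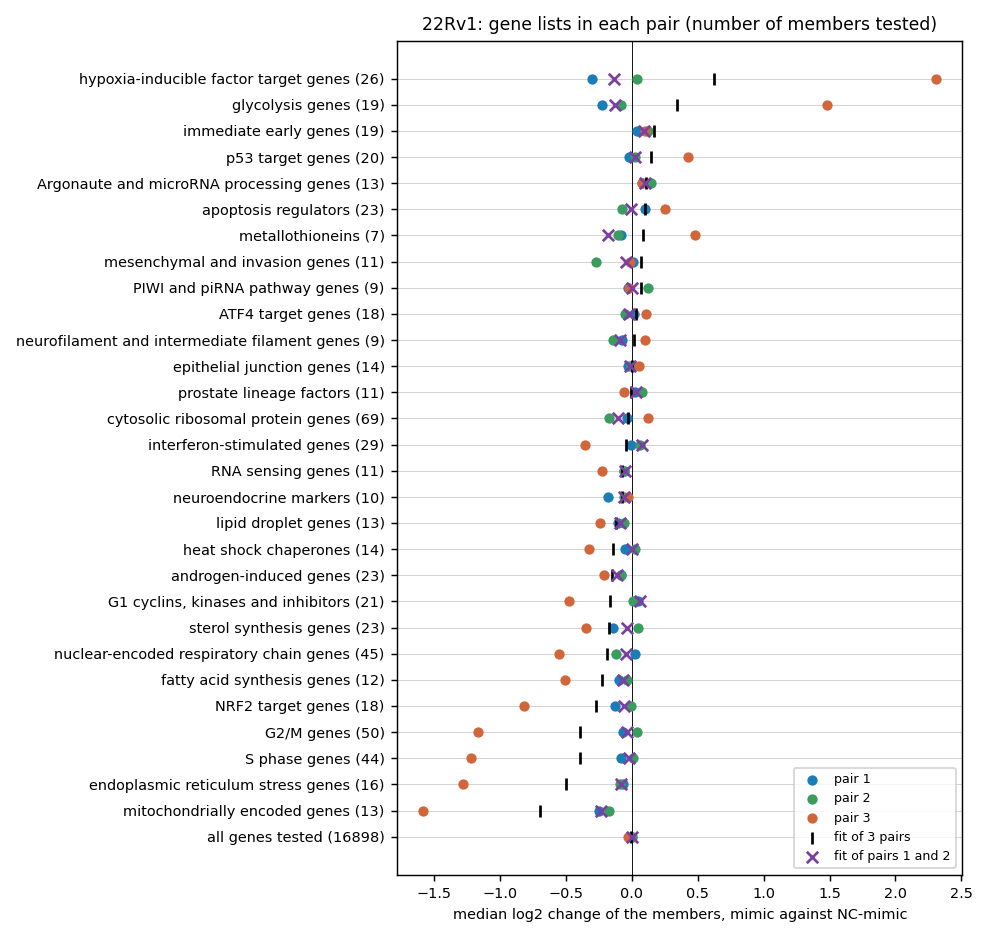
Median log2 change of the tested members of each gene list in pairs 1, 2 and 3 (points), in the fit of 3 pairs (bar) and in the fit of pairs 1 and 2 (cross), with all 16898 genes at the bottom. Pair 3 is far from the other pairs for HIF targets (2.31), glycolysis (1.48), mitochondrially encoded (-1.59), endoplasmic reticulum stress (-1.28), S phase (-1.22) and G2/M genes (-1.17).

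S phase and G2/M genes are those whose mRNAs mark DNA replication and mitosis. In pair 3, 44 of 44 S phase genes and 50 of 50 G2/M genes were lower, with medians of -1.22 and -1.17. In pairs 1 and 2 the medians were -0.08 and 0.01 for S phase and -0.07 and 0.04 for G2/M genes. With 3 pairs, where 1.25% of all genes were lower, 1 of 44 S phase genes and 2 of 50 G2/M genes were lower and 0 were higher. The same numbers were found without pair 3, where 2.84% of all genes were lower. The G2/M genes were the spindle factor TPX2 (-0.48 ± 0.19 and -0.22 ± 0.08) and the mitotic kinase PLK1 (-0.59 ± 0.23 and -0.24), the latter named after its values were seen. Among the most abundant, PCNA, the sliding clamp of replication, was at 336.9, 331.7 and 258.9 CPM against 352.2, 323.2 and 102.7 CPM, a fold change of -0.43 ± 0.28 with 3 pairs and 0.01 ± 0.07 without pair 3. MCM7 (-0.18 ± 0.13, -0.05), HMGB2 (-0.33 ± 0.17, -0.09) and TUBB4B (-0.46 ± 0.25, -0.07) were not called. Of the 21 G1 cyclins, kinases and inhibitors, MYC, listed with them, was lower in both fits (-0.30 ± 0.13 and -0.20 ± 0.08), while CCND1 (0.15 ± 0.11, 0.09) and CDK4 (-0.16 ± 0.12, -0.08) were not called.

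Among stress genes outside HIF, those of the endoplasmic reticulum and the NRF2 targets also differed mainly in pair 3. ATF4 targets did not, with medians of 0.02, -0.06 and 0.11 in pairs 1, 2 and 3. The median of the 16 endoplasmic reticulum stress genes was -0.07, -0.09 and -1.28 in pairs 1, 2 and 3, with 0 called with 3 pairs and 1 higher without pair 3, SEL1L (0.22), a gene of protein degradation named after its values were seen. The chaperones HSP90B1 (-0.73 ± 0.36, -0.14), CALR (-0.50 ± 0.24, -0.13) and PDIA6 (-0.50 ± 0.22, -0.16) did not pass with 3 pairs, and their values without pair 3 were smaller. Of 18 NRF2 targets, which serve antioxidant defence, 2 were lower and 0 higher with 3 pairs. One was TKT, transketolase, at 348.7, 402.7 and 556.6 CPM against 310.9, 328.6 and 337.3 CPM (-0.39 ± 0.14, and -0.23 ± 0.07 without pair 3), and the other was HMOX1 (-0.53 ± 0.21, -0.22), named after its values were seen, which was not called without pair 3. The ferritin genes FTH1 (0.10 ± 0.14, -0.07) and FTL (0.21 ± 0.18, -0.04) were not called. Of the 18 ATF4 targets and the 14 heat shock chaperones, 0 were called with 3 pairs, with SHMT2 at 0.01 ± 0.14 (-0.16), ATF4 at -0.01 ± 0.11 (-0.03), CHAC1 at 0.41 ± 0.25 (0.32), HSPD1 at -0.21 ± 0.16 (0.00), HSPB1 at -0.16 ± 0.17 (0.07) and DNAJA1 at -0.21 ± 0.11 (-0.19). Of the 7 metallothioneins tested, MT3 was the one called, and MT2A (0.09 ± 0.14, -0.07) and MT1G (0.24 ± 0.21, 0.42), which were more abundant, were not.

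The 69 cytosolic ribosomal protein genes had small values, and their direction differed between pairs. Their median was -0.03 with 3 pairs, where 0 were called, and -0.11 without pair 3, where 67 of 69 fold changes were negative, 8 were lower by the limits and 0 higher. Of all genes, 2.84% were lower by the limits without pair 3. In pair 2 all 69 were lower, in pair 1 42 were, and in pair 3 57 were higher. RPS15 was at 759.1, 732.0 and 747.4 CPM against 606.5, 608.2 and 656.8 CPM, with a fold change of -0.26 ± 0.11 with 3 pairs and -0.30 ± 0.06 without pair 3 (edgeR adjusted p = 0.0974). RPS27 (0.03 ± 0.13, -0.12) and RPS18 (0.02 ± 0.12, -0.06) were not called. Changes of this size are near the 0.2 limit, so the count moves with small shifts.

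Genes that could serve a piRNA were looked at next. Of 20 PIWI and piRNA pathway genes, 9 were expressed enough to be tested. PIWIL2, the PIWI protein that the study linked to this piRNA, was at 0.0652 to 0.329 CPM with NC-mimic and at 0.168 to 1.22 CPM with the mimic and was not tested, and PIWIL1 was at 0 in all 6 libraries. With 3 pairs 1 of the 9 was higher and 0 lower. This was TDRD9, a helicase of the germline piRNA pathway, at 21.3, 19.2 and 22.0 CPM against 30.7, 23.0 and 27.9 CPM, with a fold change of 0.38 ± 0.15 (0.40 ± 0.15 without pair 3). HENMT1, which methylates the 3′ end of piRNAs, and TDRKH, a partner of PIWI proteins, had -0.09 ± 0.18 (0.11) and -0.09 ± 0.19 (0.13). Of the 13 Argonaute and microRNA processing genes 0 were called with 3 pairs, with AGO3 at 0.32 ± 0.14 (0.19), TARBP2 at 0.13 ± 0.14 (0.16) and DGCR8 at 0.15 ± 0.16 (-0.05). Without pair 3, 2 were higher, DICER1 (0.28) and AGO2 (0.22), both named after their values were seen, and in pair 3 both went the other way (-0.27 and -0.38).

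A transfected RNA can be sensed as foreign, so RNA sensors and interferon-stimulated genes were described as well. Of 11 RNA sensing genes 0 were called in either fit, with TICAM1 at -0.23 ± 0.16 (-0.23), IRF3 at 0.06 ± 0.15 (-0.08) and ADAR at 0.01 ± 0.11 (-0.00). Of 29 interferon-stimulated genes 1 was higher and 2 lower with 3 pairs, and the median was -0.05. IRF7, a transcription factor of the interferon response, was at 8.20, 7.24 and 7.98 CPM against 11.3, 11.8 and 19.6 CPM, with a fold change of 0.82 ± 0.25 (0.58 ± 0.23 without pair 3). IFITM3, which restricts virus entry, was lower at -0.60 ± 0.23 with 3 pairs and not called without pair 3 (-0.32 ± 0.17), and UBE2L6, named after its values were seen, was at or under 6.09 CPM. ISG15 was at -0.09 ± 0.11 (-0.07). Without pair 3 the median was 0.08, and IRF7 was the one gene called.

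Calls among lipid, filament and death genes differed between lists. Of 13 lipid droplet genes, 2 were lower with 3 pairs, where 1.25% of all genes were, and 0 higher. They were PLIN2, a candidate that the study picked from these libraries as lower, and PLIN3 (-0.47 ± 0.18, -0.26). PLIN3, named after its values were seen, was at 32.5, 34.95 and 37.3 CPM against 27.5, 28.9 and 20.04 CPM. HILPDA (0.72 ± 0.51, -0.09) and PNPLA2 (-0.05 ± 0.12, -0.10) were not called. Of 23 sterol synthesis genes, EBP, the sterol isomerase, was lower in both fits (-0.51 ± 0.15 and -0.33 ± 0.09), and FDPS (-0.17 ± 0.11, -0.15) and FDFT1 (-0.20 ± 0.13, -0.08) were not called. Of 12 fatty acid synthesis genes 0 were called, with FASN at -0.21 ± 0.13 (-0.09), ACSS2 at -0.27 ± 0.14 (-0.16) and SCD at 0.30 ± 0.24 (-0.06), and SCD was at 1635 and 1640 CPM in the NC-mimic libraries 1 and 2 but at 162.7 CPM in the third. Of the 9 neurofilament and intermediate filament genes tested 0 were called with 3 pairs, with KRT8 at 0.11 ± 0.16 (-0.09) and KRT18 at 0.02 ± 0.15 (-0.15), and the light and medium neurofilament genes NEFL and NEFM were at or under 0.576 CPM. Of 10 neuroendocrine markers CHGA, chromogranin A, was lower with 3 pairs (-1.40 ± 0.50) and not without pair 3 (-0.73 ± 0.73), with 17.4 CPM in the NC-mimic library of pair 3 and 3.07 CPM or less in the others. ENO2 (0.47 ± 0.36, -0.11) and SYT4 (-0.04 ± 0.13, 0.08) were not called. Of the immediate early genes (19), p53 targets (20), apoptosis regulators (23), mesenchymal and invasion genes (11) and epithelial junction genes (14), 0 were called with 3 pairs. Their members with the smallest p were DUSP1 (0.28 ± 0.14, 0.18), BBC3 (0.57 ± 0.34, 0.02), CASP9 (0.48 ± 0.21, 0.38), FN1 (-0.28 ± 0.15, -0.27) and ESRP1 (0.24 ± 0.13, 0.13). Of their most abundant members, IER2 (0.01 ± 0.11, 0.02), JUND (0.17 ± 0.15, -0.02), MCL1 (0.14 ± 0.11, 0.09), BAX (0.08 ± 0.19, -0.15) and CD44 (0.02 ± 0.15, -0.12) were not called. GDF15 (-0.12 ± 0.12, -0.04), CDKN1A (0.25 ± 0.23, -0.11), VIM (0.07 ± 0.17, 0.11), CLDN7 (0.19 ± 0.13, 0.08) and CLDN4 (-0.23 ± 0.14, -0.07) were not called either. Without pair 3 these and the other lists had few calls of their own, given here with the values of that fit and all named after their values were seen. SYNM (0.42 ± 0.15), an intermediate filament gene, KLF4 (0.30 ± 0.12), an immediate early gene, and XIAP (0.23 ± 0.10), an inhibitor of apoptosis, were higher. The cystine transporter gene SLC7A11 (0.36 ± 0.11), CDK6 (0.29 ± 0.13) and COX7A2 (0.29 ± 0.09) were higher as well, and HSPA1B (-0.21 ± 0.07) and MT1X (-0.86 ± 0.30) were lower. None of these 8 genes was called with 3 pairs.

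The study asked which mRNAs the piRNA lowers through base pairing, so genes with the 7-base match in the 3′UTR were set beside genes without it. With 3 pairs, 1580 tested genes held a match and 12086 did not, and their median fold changes were 0.01 and -0.02. Without pair 3 the medians were 0.05 and -0.01. The median of genes with a match was thus not below that of the others in either fit. Of the genes with a match 0.443% were lower and 1.46% higher by the limits with 3 pairs, beside 1.46% and 0.993% of those without. Without pair 3 these shares were 1.2% and 6.7%, beside 2.97% and 2.95%. The 3′UTRs with a match were longer, with a median of 3410 bases against 1131. Within 3′UTRs of 3000 bases and over the medians were 0.04 with a match and 0.01 without, from 1000 up to 3000 bases -0.03 and -0.01, and under 1000 bases -0.02 and -0.05. Without pair 3 the same medians were 0.07 and 0.04, 0.01 and -0.00, and 0.00 and -0.04, so in the middle bin the direction of the difference turned. Among the 6 candidates NEFH was the one with a match, and the 3′UTRs of PLCD1, PLIN2, TENT5B, U2AF1 and GJD3 held 0. Other kinds of pairing with the piRNA were not searched here. TUBA4A, shown above with its match, was lower by -0.46 ± 0.13 (-0.38 without pair 3) and MICOS10 by -0.46 ± 0.17 (-0.24).

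**Figure D5:**
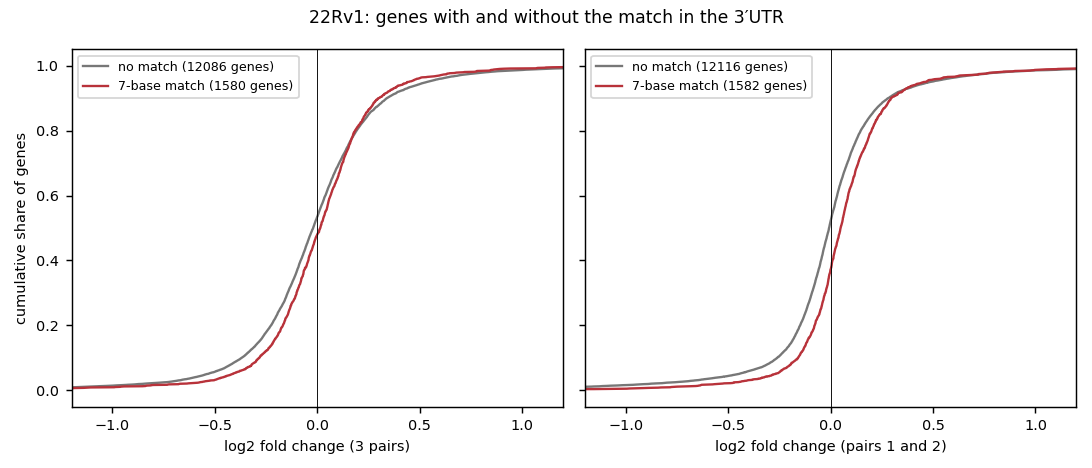
Cumulative share of genes (vertical axis) by log2 fold change with the mimic, for genes with the 7-base match in the 3′UTR (red) and without it (grey), in the fit of 3 pairs (left) and of pairs 1 and 2 (right). The curve of genes with a match lies on or to the right of the other at its middle, with medians of 0.01 against -0.02 and 0.05 against -0.01.

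Whether the effect differed from that in LNCaP was tested as an interaction of line and mimic over the 12 libraries. Of 18720 genes, 427 (2.28%) had a more positive and 425 (2.27%) a more negative change in 22Rv1 by the limits, and 0 (0.0%) passed adjustment in edgeR (smallest adjusted p 0.886), while 852 (4.55%) had an unadjusted p under 0.05. Without the 22Rv1 libraries numbered 3 the numbers were 698 (3.66%) and 717 (3.76%) of 19077, again with 0 after adjustment (smallest adjusted p 0.219) and 1421 (7.45%) at an unadjusted p under 0.05. For U2AF1 the difference of 22Rv1 minus LNCaP was -1.30, or -0.94 without the 22Rv1 libraries numbered 3. Its near-identical copy U2AF1L5 differed by -0.28 in both fits. The split of reads between these copies is uncertain, and the difference for their sum was not tested. For GMPR the difference was -1.50 and -1.33. KLK3 differed by -0.72 and -0.40, KLK2 by -0.39 and -0.28, and EPHA3 by 0.57 and 0.50. The differences of U2AF1, GMPR, KLK3, KLK2 and EPHA3 had an unadjusted p under 0.05 in both fits. These genes were picked by their change in 22Rv1, which also enters the difference, so this is no independent evidence of a difference between lines. The difference for NEFH was 0.71 and that for PLIN2 -0.81. NEFH did not pass the low-count filter in LNCaP alone, so its difference rests on a gene near absent from that line. The differences for NEFH and PLIN2 had an unadjusted p over 0.05 in both fits. None of the differences passed adjustment over all genes.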

How the data were processed

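Total RNA of 22Rv1 and LNCaP cells was sequenced as mRNA libraries. The authors used STAR 2.7.1a on hg38 for alignment and RSEM 1.3.0 for quantification, with R 4.1.1 and DESeq2 1.34.0. The deposited expected counts are estimated, not normalized reads per gene of 60660 genes, in which reads matching several genes are divided. The deposited TPM are scaled for length and sum to 1000000. Annotation version, trimming, read length and strand are not given in the sources used here.

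After rounding of expected counts, tests were run with edgeR 4.0.16 under R 4.3.3 (TMM, filterByExpr, glmQLFit, glmQLFTest) with the replicate number as block. Deviations of same-numbered libraries from their group means correlated across genes at 0.252, 0.197 and 0.394, so the numbers were taken as pairs from the values and the stated comparison, not from a batch in the labels. NC-mimic library 1 correlated at 0.239 with mimic library 2, so the numbers mainly separate replicate 3. P-values were adjusted by Benjamini-Hochberg over all genes of a fit. The difference between lines was an interaction over 12 libraries with line by replicate as block. The lists and marker sets were described without a test. Members, lists and rules were chosen with earlier results of these data known. Named genes were the candidates and U2AF1L5, the 10 higher and 10 lower with the smallest p among protein-coding genes at 1 TPM or more within the DEG limits and with one sign in all pairs, the 5 and 5 likewise without pair 3, the 10 leading in both fits, and from each list the smallest p and the 2 most abundant by TPM. Others are marked where they are named, and some genes within these rules are not reported here.

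Of the gene IDs, 60463 matched GENCODE 44 on hg38, from which 3′UTRs of the canonical transcripts were read. The alternatives used DESeq2 1.42.0, limma 3.58.1 on log2(TPM + 1) for genes with at least 1 TPM in 3 or more libraries, other filters, size factors and fold limits, all 12 libraries, no block, and leaving out each pair. LNCaP was otherwise not analysed here. Intervals on counts would cover counting error only and are not given. The sequence of the mimic is not printed.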

Additional observations from a re-analysis of the deposited data

How the results depend on the processing

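Without the replicate block, 135 genes were higher and 115 lower by the DEG limits, and 19 of the 38 named genes past an unadjusted p of 0.05 other than the candidates no longer passed, while each kept its direction. Of these genes, 38 still passed with DESeq2 size factors, 36 with DESeq2, 35 with all 12 libraries, 21 of 37 with limma, 26 without replicate 1, 26 without replicate 2 and 35 of 37 without replicate 3. The higher count was 418 with no low-count filter, 423 with limma on log2(TPM + 1), 760 with all 12 libraries in the fit and 70 at an absolute log2 fold change over 1. The lower count was 614, 214, 884 and 46 in these settings and 121 over 0.5. With shrunken DESeq2 fold changes 156 were higher and 213 lower. With limma 66.4% of the calls were higher, against 49.5% in the main count, and the median of all genes was shifted by 0.05. Chosen after seeing the data, 422 and 359 genes were higher and lower with no block and without replicate 3, and DESeq2 without replicate 3 gave 152 and 135. Leaving out each pair gave 189 to 559 higher and 222 to 486 lower genes, and 0 to 17 at an adjusted p under 0.05. That last count was 6 with no filter, 2 with DESeq2 with or without shrinkage, 4 with no block and without replicate 3 (AC005034.3, AC002470.2, U2AF1 and AL136295.4), and 12 with DESeq2 without replicate 3, of which 10 were among the 17 of edgeR. The difference from LNCaP gave 1415 genes in place of 852 without the 22Rv1 libraries numbered 3. The site difference in medians ranged from 0.0006 to 0.056 over the left-out pairs. Genes listed at 0 in a library may lie up to 0.135 to 0.247 CPM, so folds of genes near these levels, such as that given for MT3, are uncertain.

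Of the candidates, NEFH passed with no filter (-0.43) and ranged from -0.59 to -0.16 over the left-out pairs, PLIN2 from -1.10 to -0.90 and GJD3 from -1.66 to -1.06. With limma PLIN2 (-0.46) and GJD3 (-0.60) no longer passed, and U2AF1 did not when its reads were summed with U2AF1L5 (-0.26), a sum also chosen after seeing the data. List medians that moved past the spread of the pairs were, with limma, 0.14 for lineage factors, 0.21 for Argonaute genes, 0.16 for intermediate filaments, 0.075 for neuroendocrine markers, 0.13 for ATF4 targets, 0.23 for immediate early genes and 0.12 for epithelial junctions. PIWI genes had 0.18 with no filter, and immediate early genes 0.12 with no block and 0.048 with shrinkage. Over the left-out pairs immediate early genes ranged from 0.095 to 0.15, epithelial junctions from -0.017 to 0.046 and lipid droplet genes from -0.23 to -0.088.

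Reversed with limma were TDRKH (0.059), SYT4 (0.035), ATF4 (0.052), JUND (-0.040), FN1 (0.57), ACSS2 (0.21), CERS6-AS1 (0.27) and AL354740.1 (0.038), none of which was called with 3 pairs. The sign turned on leaving out one pair for the following genes, given as ranges, and the cause was not tested. Without replicate 3 these were HENMT1 (-0.19 to 0.11), TDRKH (-0.25 to 0.13), DGCR8 (-0.051 to 0.30), KRT8 (-0.091 to 0.27), KRT18 (-0.15 to 0.13), ENO2 (-0.11 to 0.83), SYT4 (-0.13 to 0.078), IRF3 (-0.075 to 0.20), PCNA (-0.67 to 0.013), VEGFA (-0.073 to 1.51), DDIT4 (-0.32 to 1.60), GAPDH (-0.18 to 0.71), TPI1 (-0.15 to 0.34), SHMT2 (-0.16 to 0.14), FTH1 (-0.065 to 0.20), FTL (-0.040 to 0.38), HSPD1 (-0.33 to 0.0016), HSPB1 (-0.28 to 0.071), JUND (-0.017 to 0.29), CDKN1A (-0.11 to 0.46), BAX (-0.15 to 0.30), CD44 (-0.12 to 0.17), SCD (-0.059 to 0.60), HILPDA (-0.086 to 1.22), MT2A (-0.074 to 0.18), RPS27 (-0.12 to 0.12) and RPS18 (-0.060 to 0.12). Without other pairs they were ZBTB10 (-0.0009 to 0.032), ADAR (-0.011 to 0.072, also without replicate 3), ATF4 (-0.035 to 0.062), VIM (-0.13 to 0.25), PNPLA2 (-0.098 to 0.0060), CERS6-AS1 (-1.83 to 1.78) and AC027796.3 (-3.43 to 0.31).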
